A study of Mus musculus with 2 samples.

Results

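Fc gamma receptors bind the constant part of IgG antibodies. The genes described here were the 6 rows of the deposited gene table named Fcgr1, Fcgr3, Fcgr4, Fcgr2b, Fcer1g and Fcgrt, chosen by symbol out of 22216 gene rows. Whole spleens of mice of the NOD.L7 genotype were compared with spleens of mice of the NOD.g7 genotype by RNA sequencing, with 1 library per genotype and the spleens of 3 mice pooled in each. NOD (non-obese diabetic) mice are inbred and develop diabetes by autoimmune attack on the pancreatic islets. The labels do not say what L7 or g7 stand for, and no source used here gives ages or treatments. The table heads its columns NOD.LC7 and NOD, which were taken as NOD.L7 and NOD.g7.

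Mouse cells carry activating IgG receptors, encoded by Fcgr1 (high affinity), Fcgr3 and Fcgr4, and an inhibitory one, encoded by Fcgr2b. The activating receptors signal through a shared gamma chain, Fcer1g, whose tyrosine motif (ITAM) recruits kinases, while the inhibitory receptor carries its own tyrosine motif (ITIM), which recruits the phosphatase Inpp5d. Macrophages and neutrophils carry both kinds, B cells carry Fcgr2b alone of these receptors, and NK cells chiefly carry Fcgr3. Fcgrt encodes the heavy chain of the neonatal Fc receptor FcRn, which pairs with B2m and returns IgG to the blood from endosomes.

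The level of each gene is given as RPKM, reads normalised for the length of the gene and the depth of the library. The gene lengths used are not known, so levels, sums, shares and ratios across genes are approximate. For Fcgr2b, the GENCODE M21 annotation holds transcripts of 1084 and of 3544 bases. Folds of 1 gene between the libraries do not depend on its length. From the steps of the values, 12.1 Gb of mapped sequence lay behind the NOD.L7 library and 9.13 Gb behind the NOD.g7 library. All 6 genes were among the 11141 genes that were kept because their RPKM reached 1 in a library. With 1 pooled library per genotype the spread between mice cannot be measured, no test could be made, and the differences below hold for these 2 libraries alone. The 95% intervals given with folds are exact binomial (Clopper-Pearson) intervals of approximated fragment numbers and cover counting error only. Defining genes of spleen cell types were present in both libraries, with the T cell gene Cd3e at 152 in NOD.L7 and 150 in NOD.g7 and the red pulp macrophage factor Spic at 32.9 in NOD.L7 and 20.0 in NOD.g7. In spleen RNA, fewer cells of a type and less RNA per cell cannot be told apart.

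Fcgr2b and Fcgr3 have similar coding sequence, so their reads can be shared, and this is shown here because their levels are compared below. In GENCODE M21 transcripts, an ungapped stretch of 479 bases was 96.2% identical between them, and its longest identical run had 129 bases. The following 120 coding bases of each are the part of that stretch that differs most, with the 11 differing bases in capitals. The identical run follows them.
Fcgr2b: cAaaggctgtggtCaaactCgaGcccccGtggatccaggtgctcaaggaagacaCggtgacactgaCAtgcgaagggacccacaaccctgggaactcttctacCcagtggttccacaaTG
Fcgr3: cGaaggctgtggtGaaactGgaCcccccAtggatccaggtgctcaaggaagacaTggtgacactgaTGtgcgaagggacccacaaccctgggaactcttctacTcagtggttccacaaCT
Run in both: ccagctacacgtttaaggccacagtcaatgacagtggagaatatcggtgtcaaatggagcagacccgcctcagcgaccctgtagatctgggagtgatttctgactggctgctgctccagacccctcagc

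Of the 1298 windows of 50 bases in the longest Fcgr3 transcript, 166 (12.8%) also occurred in an Fcgr2b transcript, and of its windows of 100 bases 3.53% did. Of the 3495 windows of 50 bases of Fcgr2b, 436 (12.5%) occurred in transcripts of other genes, most often of Cplx2 (6.90% of the windows). No window of 50 bases of Fcgr1, Fcgr4, Fcer1g or Fcgrt occurred in a GENCODE transcript of another gene. No source used here says how the authors treated reads with several matches, and sequence variants of these mice were not analysed here. The levels of Fcgr3 and Fcgr2b, and the ratios that rest on them, are thus uncertain in part.

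The activating receptor genes were higher in the NOD.L7 library than in the NOD.g7 library, led by Fcgr3, while the inhibitory receptor and the shared gamma chain differed little and the FcRn gene was slightly lower. Fcgr3, the low-affinity activating receptor of macrophages, neutrophils and NK cells, had an RPKM of 32.1 in NOD.L7 and 16.9 in NOD.g7. That is a fold of 1.90 (counting interval 1.77 to 2.04), the widest difference among the 6 genes. Fcgr1, the high-affinity receptor of macrophages and monocytes, had 3.87 in NOD.L7 and 2.37 in NOD.g7, a fold of 1.63 (1.41 to 1.89). It was the least abundant of the 6 in both libraries, and its interval rests on about 605 fragments in NOD.L7 and 280 in NOD.g7. Fcgr4, an activating receptor of myeloid cells that binds IgG2a and IgG2b, had 14.5 in NOD.L7 and 10.3 in NOD.g7, a fold of 1.40 (1.27 to 1.55).

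Fcgr2b, the inhibitory receptor of B cells and myeloid cells, had 62.1 in NOD.L7 and 56.0 in NOD.g7, a fold of 1.11 (1.08 to 1.14). Fcer1g, the gamma chain, had 73.2 in NOD.L7 and 67.9 in NOD.g7, a fold of 1.08 (1.02 to 1.14). These were the most abundant of the 6 genes, and Fcer1g stood above 94.1% of kept genes in NOD.L7 and above 93.3% in NOD.g7. Fcgrt had 18.1 in NOD.L7 and 20.9 in NOD.g7, a fold of 0.87 (0.81 to 0.93), and was the 1 gene of the 6 that was lower in NOD.L7. The order of levels was Fcer1g, Fcgr2b, Fcgr3, Fcgrt, Fcgr4 and Fcgr1 in NOD.L7. In NOD.g7 the order was the same except that Fcgrt stood above Fcgr3.

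**Figure D1:**
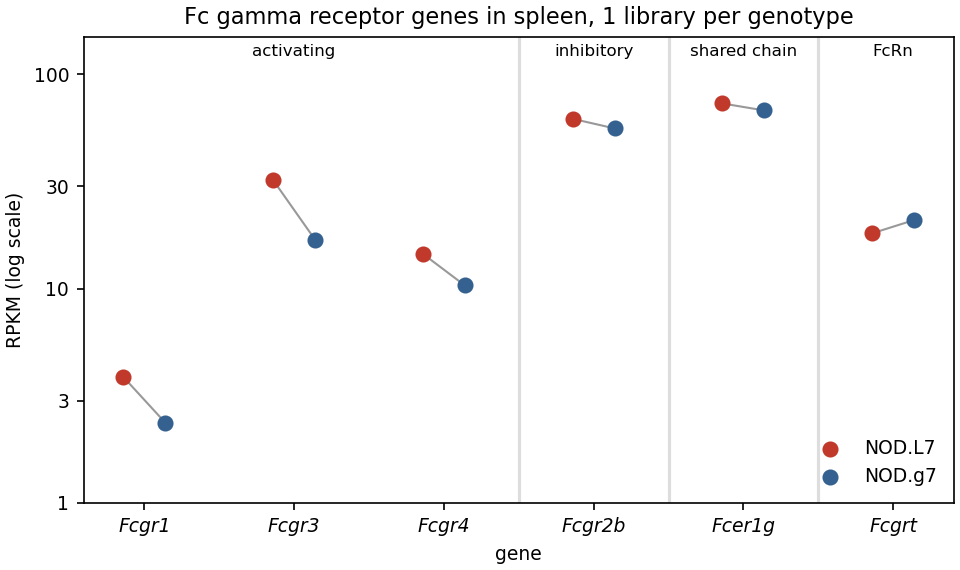
RPKM (log axis) of the 6 Fc gamma receptor genes in the NOD.L7 library (red) and the NOD.g7 library (blue), 1 point per library, grouped by role, with a line joining the points of a gene. The activating genes slope down from NOD.L7, most steeply Fcgr3 at 32.1 in NOD.L7 and 16.9 in NOD.g7, while Fcgr2b and Fcer1g are nearly level and Fcgrt slopes the other way.

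To place these differences among all genes, log2 ratios of NOD.L7 over NOD.g7 were computed with 1 added to each RPKM, a scale that understates the change of low genes. The log2 ratios were 0.89 for Fcgr3, 0.53 for Fcgr1, 0.45 for Fcgr4, 0.15 for Fcgr2b, 0.11 for Fcer1g and -0.20 for Fcgrt. No member reached an absolute log2 ratio of 1, a size that 0.386% of the 11141 kept genes reached upward and 0.323% downward. Fcgr3 and Fcgr1, 2 of the 6 members, reached 0.5 upward, as did 2.52% of kept genes, and 0 reached it downward, against 1.58% of kept genes. Fcgr1 and Fcgr4 lie close to that size on either side. Fcgr3 had the 65th highest log2 ratio of the kept genes, Fcgr1 the 252nd and Fcgr4 the 334th, while Fcgr2b was 1934th and Fcer1g 2653rd. Fcgrt was 813th from the lowest. In all, 5 of the 6 members were higher in NOD.L7, against 56.2% of kept genes, and 1 was lower, against 43.8%. The median log2 ratio of the members was 0.30, against 0.02 over all kept genes, and that of the 4 IgG receptor chains Fcgr1, Fcgr3, Fcgr4 and Fcgr2b was 0.49.

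**Figure D2:**
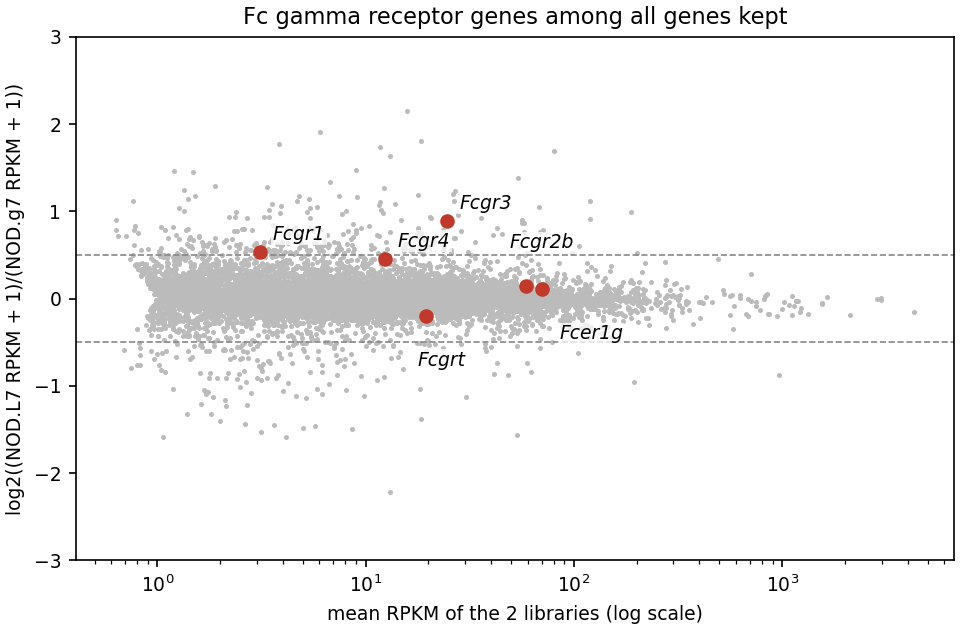
Log2 ratio of NOD.L7 over NOD.g7 (vertical, 1 added to each RPKM) against the mean RPKM of the libraries (log axis) for all kept genes (grey) and the Fc gamma receptor genes (red). Dashed lines mark 0.5 in each direction, and 2 kept genes lie beyond the axis limit of 3. Fcgr3 and Fcgr1 lie above the upper line, Fcgr4 just under it, and the other members inside the main cloud.

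At 200 bases per fragment, folds differed between members by more than counting error in 12 of the 15 pairs of members. The pairs were taken without adjustment for their number. Other fragment sizes would widen or narrow these intervals and were not tried for pairs, so the count depends on that setting. The fold of Fcgr3 was 1.71 times that of Fcgr2b (interval 1.59 to 1.85) and 1.35 times that of Fcgr4 (1.19 to 1.53). The fold of Fcgr4 was 1.27 times that of Fcgr2b (1.14 to 1.41), and that of Fcgr1 was 1.47 times that of Fcgr2b (1.27 to 1.71). The pairs whose interval held 1 were Fcgr1 with Fcgr3, at 0.86 (0.73 to 1.01), Fcgr1 with Fcgr4, at 1.16 (0.97 to 1.39), and Fcgr2b with Fcer1g, at 1.03 (0.97 to 1.09). The fold of Fcgrt stood apart from those of all 5 others, with Fcgr3 at 2.19 times it (1.98 to 2.42).

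**Figure D3:**
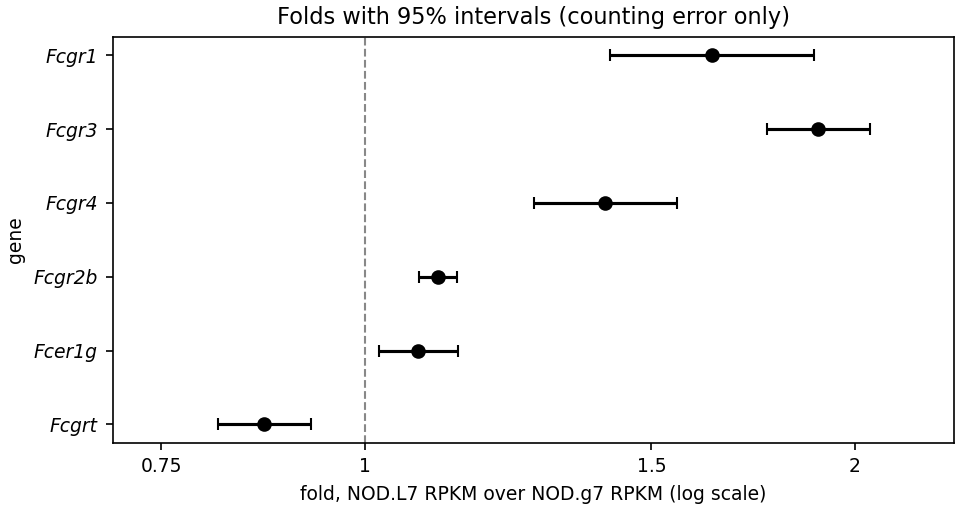
Fold of NOD.L7 RPKM over NOD.g7 RPKM (log axis) for each Fc gamma receptor gene, with bars for the 95% counting interval, which leaves out variation between mice. Fcgr3 (1.90), Fcgr1 (1.63) and Fcgr4 (1.40) lie to the right of Fcgr2b (1.11) and Fcer1g (1.08), and Fcgrt (0.87) lies left of 1.

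The ratio of activating to inhibitory receptor RNA can be read within each library, where library scaling cancels. It is a ratio of whole spleen and not of any cell type, because B cells carry Fcgr2b alone of these receptors. Summed markers had a fold of 0.84 for B cells, 0.46 for NK cells, 1.18 for monocytes and macrophages and 1.30 for neutrophils. Their part in this ratio was not tested. The summed RPKM of Fcgr1, Fcgr3 and Fcgr4 was 50.5 in NOD.L7 and 29.6 in NOD.g7. Divided by Fcgr2b, this gave an activating to inhibitory ratio of 0.81 in NOD.L7 and 0.53 in NOD.g7, 1.54 times as high in NOD.L7. The same ratio of ratios on approximated fragments had a counting interval of 1.45 to 1.64. By RPKM, inhibitory RNA exceeded the activating sum in both libraries, which rests on the unknown gene lengths. Without Fcgr3, whose reads can be shared with Fcgr2b, the ratio in NOD.L7 was 1.31 times that in NOD.g7.

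Among the 4 IgG receptor chains, Fcgr2b made up 55.1% of the summed RPKM in NOD.L7 and 65.4% in NOD.g7. Fcgr3 made up 28.5% in NOD.L7 and 19.8% in NOD.g7. The share of Fcgr4 was 12.9% in NOD.L7 and 12.1% in NOD.g7, and that of Fcgr1 was 3.44% in NOD.L7 and 2.76% in NOD.g7. The shares that differed most were those of Fcgr2b and Fcgr3. Fcer1g RNA, from the gamma chain that the activating receptors share, was 1.45 times the activating sum in NOD.L7 and 2.29 times it in NOD.g7.

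**Figure D4:**
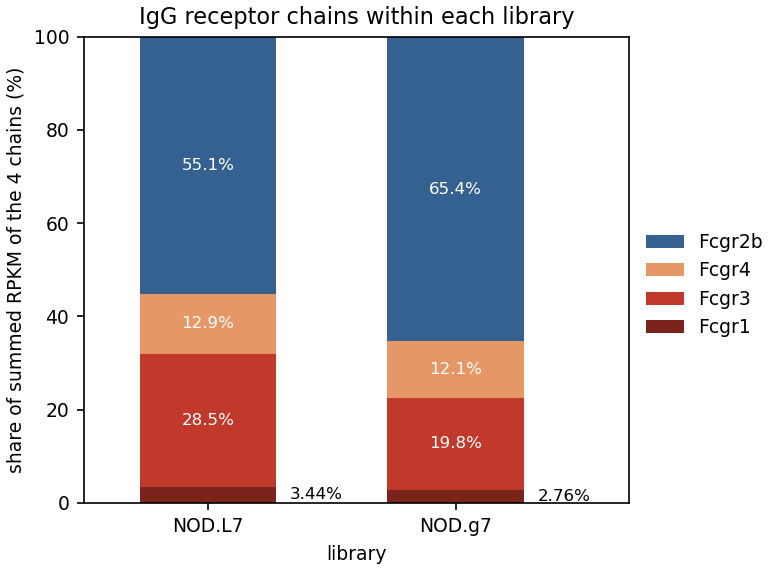
Share of each IgG receptor chain in the summed RPKM of the 4 chains (percent, from 0 to 100) in the NOD.L7 library (left) and the NOD.g7 library (right). The Fcgr2b part is 55.1% in NOD.L7 and 65.4% in NOD.g7, and the Fcgr3 part is 28.5% in NOD.L7 and 19.8% in NOD.g7.

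The promoters of the 3 activating genes are shown beside that of Fcgr2b because the activating genes were higher together. They are the 130 bases before the transcription start from RefSeq, build GRCm38.p6, and were searched together with a further 120 bases upstream. This is reference sequence, and that of these NOD mice may differ and was not analysed here. Capitals mark matches, on either strand, to GAGGAA (a core of the ETS box bound by PU.1, a transcription factor of myeloid and B cells) or TTCNNNGAA (the GAS element of genes induced by interferon gamma). The motifs were chosen with the sequences in view.
Fcgr1 chr3:96293970-96294099 minus strand: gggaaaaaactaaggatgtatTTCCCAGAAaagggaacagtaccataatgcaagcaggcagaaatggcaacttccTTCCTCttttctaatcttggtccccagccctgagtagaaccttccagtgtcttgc
Fcgr3 chr1:171059404-171059533 minus strand: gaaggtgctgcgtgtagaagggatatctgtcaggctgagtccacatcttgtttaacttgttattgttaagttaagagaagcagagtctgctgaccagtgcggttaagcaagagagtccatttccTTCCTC
Fcgr4 chr1:171018796-171018925 plus strand: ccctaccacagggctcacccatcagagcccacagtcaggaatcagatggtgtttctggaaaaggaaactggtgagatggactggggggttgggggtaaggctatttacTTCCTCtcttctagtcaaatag
Fcgr2b chr1:170976072-170976201 minus strand: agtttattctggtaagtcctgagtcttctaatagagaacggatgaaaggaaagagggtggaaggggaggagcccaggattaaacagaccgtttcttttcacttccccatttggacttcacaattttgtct

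Each of the 3 activating promoters held 1 match to GAGGAA, read as TTCCTC, which lay at bases 55 to 50 before the start in Fcgr1, 6 to 1 in Fcgr3 and 22 to 17 in Fcgr4. The Fcgr2b, Fcer1g and Fcgrt promoters held 0 matches to GAGGAA in the same window of 250 bases. The shorter string GGAA did occur in each of them. The contrast is thus of the letters GAGGAA, and other ETS-type strings were not counted. A match to GAGGAA was held by 23.1% of 27025 RefSeq promoters, 1 per gene symbol. Where a gene had several listed starts, only the first listed was searched, for the members too. The run ttccttcctc, of 10 bases, was common to Fcgr1 and Fcgr3 and occurred in 56 of the promoters. Sharing of this kind was not limited to activating genes. Fcgr2b and Fcer1g shared ctgagtctt, of 9 bases, found in 52 promoters, and Fcgr3 and Fcer1g shared ggctgagtc, of 9 bases, found in 59. A GAS match was found in Fcgr1 alone of the 6, at bases 109 to 101, against 7.18% of all promoters, and the motifs did not overlap. These are matches of letters and not shown to be bound in these spleens.

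In the table, in mm9, Fcgr2b (chromosome 1, 172890689 to 172906202), Fcgr4 (172949057 to 172959892), Fcgr3 (172981300 to 172989534) and Fcer1g (173159703 to 173164480) lay in 1 cluster. Fcgr1 lay on chromosome 3 (96086832 to 96097892) and Fcgrt on chromosome 7 (52348363 to 52359192). The genes beside the cluster differed little between libraries. Fcrla, an intracellular Fc receptor-like gene of B cells next to Fcgr2b, had 128 in NOD.L7 and 148 in NOD.g7 (log2 ratio -0.21). Of the 10 other kept genes within 250 kb of Fcgr3, 0 reached 0.5 in either direction, and their log2 ratios ran from -0.21 to 0.20. Tomm40l, beside Fcer1g, was near 0 (0.01).

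Of the 10 kept genes within 250 kb of Fcgr1, 0 reached 0.5, and the nearest, the histone gene Hist2h2bb, had a log2 ratio of 0.28. Of the 32 around Fcgrt, 1 reached 0.5 upward and 1 downward, the small RNA genes Mir707 and Snord35b. Rcn3, a protein-coding neighbour of Fcgrt, was closer to 0 than Fcgrt itself, at -0.08.

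The partners of these receptors were described with lists chosen with earlier results of these data known. Over 8 pathway lists, 71 of 89 genes were kept, with a median log2 ratio of 0.05. Of the 71, 8 reached 0.5 upward and 2 downward, against 2.52% and 1.58% of all kept genes. In all, 41 of the 71 were higher in NOD.L7 at any size, against 56.2% of all kept genes. Counts of the lists below are to be read beside these shares. Among ITAM adaptors and the receptors that couple to them, 5 of 7 kept genes were higher in NOD.L7, 3 of them past 0.5, and 1 was lower past it. Those 3 were lectin receptors of myeloid cells that signal through Fcer1g. Clec4d had 20.3 in NOD.L7 and 5.88 in NOD.g7 (log2 ratio 1.63). Clec4e, which recognises a mycobacterial glycolipid, had 5.15 in NOD.L7 and 1.54 in NOD.g7 (1.28). Clec4n, the fungal receptor Dectin-2, had 19.5 in NOD.L7 and 9.99 in NOD.g7 (0.90). Ncr1, an NK cell receptor that also uses Fcer1g, had 11.6 in NOD.L7 and 24.9 in NOD.g7 (-1.04). The receptors that share the gamma chain thus differed in both directions while Fcer1g had a fold of 1.08. The related adaptor Tyrobp had 202 in NOD.L7 and 174 in NOD.g7 (0.21).

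Genes that carry the activating signal were mostly close between libraries, with 12 of 17 kept genes higher, a median of 0.09, and 1 past 0.5. That gene was Gab2, a scaffold for phosphoinositide 3-kinase, with 3.51 in NOD.L7 and 1.60 in NOD.g7 (0.80). Card9, which links ITAM receptors to NF-kappaB, followed at 0.41, the adaptor Lat at 0.37 and the adaptor Lcp2 at 0.27. The kinase gene Syk is not analysed here. Of 9 genes of the inhibitory signal 5 were higher and 0 reached 0.5, with a median of 0.05. Inpp5d, the phosphatase that Fcgr2b recruits, had 88.4 in NOD.L7 and 76.0 in NOD.g7 (0.22), and Csk, an inhibitory kinase, had 226 in NOD.L7 and 245 in NOD.g7 (-0.11). Of 9 phagocytosis and oxidase genes 0 reached 0.5 (median -0.01), with the integrin gene Itgam furthest from 0 at 0.37.

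For FcRn, the light chain B2m had 1657 in NOD.L7 and 1634 in NOD.g7, so B2m RNA was 91.4 times Fcgrt RNA in NOD.L7 and 78.1 times in NOD.g7. None of the 6 kept genes of the FcRn recycling list reached 0.5 (median 0.01), with the small GTPase gene Rab4a furthest at 0.33. Of the ligand list 1 gene was kept, Jchain, the joining chain of secreted IgM and IgA, with 238 in NOD.L7 and 165 in NOD.g7 (0.52), and the IgG heavy chain genes are not analysed here. Of 13 kept genes that regulate these receptors 9 were higher (median 0.08) and 1 was past 0.5. That was C5ar1, the complement C5a receptor, which shifts the balance of activating to inhibitory Fc receptors on mouse macrophages, with 7.58 in NOD.L7 and 3.20 in NOD.g7 (1.03). Irf1, a transcription factor induced by interferon gamma, had a log2 ratio of 0.27, and Irf8 had -0.12.

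Of the 9 kept genes among other Fc receptors 6 were lower in NOD.L7 (median -0.08). Fcer2a, the IgE receptor CD23 of B cells, had 132 in NOD.L7 and 257 in NOD.g7 (-0.96). The high-affinity IgE receptor genes of mast cells and basophils were higher, with Fcer1a at 1.28 in NOD.L7 and 0.282 in NOD.g7 (0.83) and Ms4a2 at 1.99 in NOD.L7 and 0.856 in NOD.g7 (0.69). The Fcer1a level in NOD.g7 rests on about 13 fragments. Fcrl5, a receptor-like gene of B cells, had 37.8 in NOD.L7 and 26.4 in NOD.g7 (0.50, just under the size rule).

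**Figure D5:**
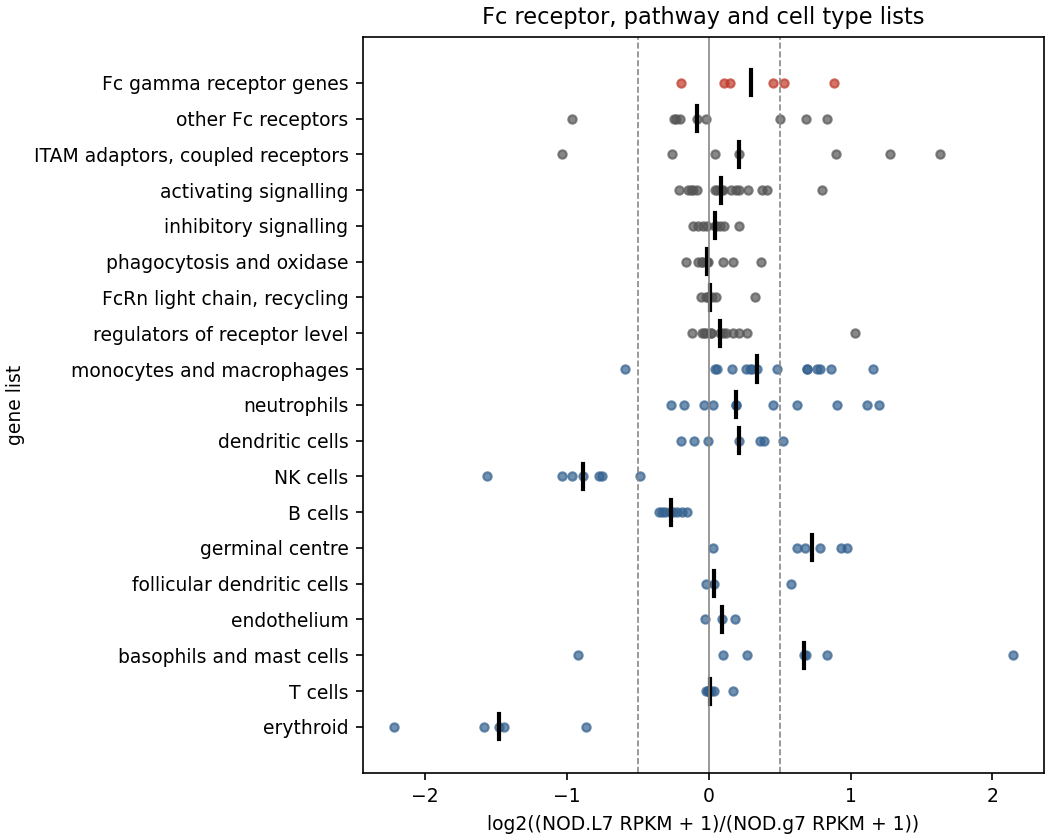
Log2 ratio of NOD.L7 over NOD.g7 (1 added to each RPKM) for the kept genes of each list with at least 3, 1 point per gene, with the list's median as a black bar and dashed lines at 0.5 in each direction. Red marks the Fc gamma receptor genes (median 0.30), grey the pathway lists and blue the cell type lists. NK cell and erythroid genes lie left of 0, and monocyte and macrophage genes mostly right of it.

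Markers of the cells that carry these receptors also differed, and their part in the receptor differences was not tested. Of 15 monocyte and macrophage markers 14 were higher in NOD.L7 (median log2 ratio 0.34), with a summed RPKM of 1271 in NOD.L7 and 1074 in NOD.g7 (fold 1.18). Cd163, a haemoglobin scavenger receptor, was at 1.16, and Cx3cr1, a chemokine receptor of patrolling monocytes, was the 1 lower marker at -0.59. Of 11 neutrophil markers 8 were higher, with a median of 0.19 and a sum of 1127 in NOD.L7 and 865 in NOD.g7 (fold 1.30). Their chemokine receptor Cxcr2 was at 1.20 and the growth factor receptor Csf3r at 0.90. The 3 lower markers were Elane at -0.27, Camp at -0.17 and Ltf at -0.03. Of 7 dendritic cell markers 4 were higher (median 0.21, sums 84.5 in NOD.L7 and 71.9 in NOD.g7).

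Markers of NK cells, which carry Fcgr3, and of B cells, which carry Fcgr2b, went the other way. All 7 NK cell markers were lower in NOD.L7 (median -0.89, sums 85.2 in NOD.L7 and 185 in NOD.g7), with the granzyme gene Gzma at -1.57. All 8 B cell markers were lower (median -0.26, sums 2336 in NOD.L7 and 2791 in NOD.g7), while Fcgr2b was slightly higher. All 6 germinal centre genes were higher (median 0.73), among them the transcription factor gene Mef2b at 0.98. Of 7 kept basophil and mast cell markers 6 were higher (median 0.67), from Prss34 at 0.10 and Mcpt8 at 0.27 to the histidine decarboxylase gene Hdc at 2.14. The mast cell protease gene Cma1 was lower at -0.92 (1.36 in NOD.L7 and 3.48 in NOD.g7). Of these 7, only Hdc reached an RPKM of 5 in a library. Of the 3 kept follicular dendritic cell genes 2 were higher (median 0.04), as were 2 of 3 endothelial genes (median 0.09). The 6 T cell genes had a median of 0.01, and all 5 erythroid genes were lower (median -1.48). No marker of these lists was listed at 0 in NOD.L7, and 1, the follicular dendritic cell list's Madcam1, was listed at 0 in NOD.g7.

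The members were also set against the summed markers of the cells that carry them, and the outcome depended on the cell type and on which markers weigh most. Per 1000 RPKM of monocyte and macrophage markers, Fcgr3 was at 25.3 in NOD.L7 and 15.8 in NOD.g7, 1.60 times as high. Fcgr1 was at 3.04 in NOD.L7 and 2.20 in NOD.g7 (1.38 times), and Fcgr4 at 11.4 in NOD.L7 and 9.64 in NOD.g7 (1.19 times). By the same measure Fcgr2b was at 48.8 in NOD.L7 and 52.1 in NOD.g7 (0.94 times) and Fcer1g at 57.6 in NOD.L7 and 63.2 in NOD.g7 (0.91 times). Lyz2, the lysozyme gene, supplied 636 of that sum in NOD.L7 and 618 in NOD.g7 (fold 1.03). Folds of the other markers of the list varied, against 1.90 for Fcgr3. Cd163 was above it at 2.47. The complement genes C1qb at 1.84, C1qa at 1.73 and C1qc at 1.71, Mertk at 1.76 and Spic at 1.64 were below it. Lower still were Adgre1 at 1.41, Csf1r at 1.27, Marco at 1.26, Cd68 at 1.24 and Ccr2 at 1.23. Mpeg1 was at 1.12, Siglec1 at 1.06 and Cx3cr1 at 0.64. Per 1000 RPKM of the neutrophil markers, Fcgr3 in NOD.L7 was 1.46 times its value in NOD.g7, Fcgr1 1.25 times and Fcgr4 1.08 times. S100a9 supplied 570 of the neutrophil sum in NOD.L7 and 416 in NOD.g7, and S100a8 supplied 251 in NOD.L7 and 220 in NOD.g7. Per 1000 RPKM of the B cell markers, Fcgr2b was at 26.6 in NOD.L7 and 20.1 in NOD.g7, 1.32 times as high, the opposite direction to that per macrophage markers. Per 1000 RPKM of the NK cell markers, Fcgr3 was at 377 in NOD.L7 and 91.4 in NOD.g7, 4.13 times as high. These ratios weight the markers by their abundance and carry no error beyond that of single libraries.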

How the data were processed

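The authors deposited 1 table of RPKM values per gene (reads scaled for gene length and mapped depth), with 1 column per library. Per the submitters' processing notes the tools were CASAVA 1.8.2 and SAMtools 0.1.18 and the build was mm9. No source used here gives aligner settings, gene models or strandedness. RNA came from whole spleen by RNeasy extraction and TruSeq libraries, per the labels' protocols.

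Log2 ratios used a pseudocount of 1 and genes with RPKM of at least 1 in either library. Depth came from the steps of 101 NOD.L7 and 85 NOD.g7 values of single-exon genes under 2500 bases, of which 100% lay within 0.15 of a whole number of bases. Fragments were approximated from RPKM, the longest GENCODE M21 transcript and 200 bases per fragment. The interval calculation was tried on simulated counts drawn with the same depth, lengths and fragment size. That cannot check these settings, shared reads or variation between mice. No count model was applied. Named genes were the 6 members, the genes with the 4 largest absolute log2 ratios in a list, list members past a log2 ratio of 1, and the nearest kept neighbours, with fewer given where they add nothing; some are not reported here. Irf8, Tyrobp, Spic, Cx3cr1, Lyz2, Mertk, Madcam1, Mir707 and Snord35b fall outside this rule and were chosen after their values were seen. The same holds for Mcpt8, Prss34 and the remaining monocyte and macrophage markers, which were named to give that whole list. It also holds for the neutrophil markers Elane, Camp, Ltf, S100a8 and S100a9. The members, lists and size rules were chosen with earlier results of these data known. Lists had 4 IgG heavy chain genes and Syk, Spi1, Ly6g and Epb42 without a matched row, which are not analysed here. Python 3.11.15, pandas 2.3.3, NumPy 2.4.6, SciPy 1.17.1 and matplotlib 3.10.9 were used.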

Additional observations from a re-analysis of the deposited data

How the results depend on the processing

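No paired analysis was possible because there were no replicates in either genotype, so none was left out in turn either. Under pseudocounts of 0.1 and 0.5, median centring and a TMM factor, each member's log2 ratio kept its sign and moved by less than its counting interval (24 values), and the same members, Fcgr1 and Fcgr3, stayed past 0.5, with Fcgr1 between 0.52 and 0.69. With a filter at RPKM 5 Fcgr1 is left out, so 1 member passed. The median was 0.49 over the 4 IgG receptor chains alone. The activating to inhibitory ratio of NOD.L7 over NOD.g7 was 1.31 without Fcgr3, 1.27 with Fcgr4 alone and 1.71 with Fcgr3 alone, against 1.54. All 18 alternative counting intervals, with 100 or 300 bases per fragment or the shortest protein-coding transcript (a setting chosen after seeing the data), lay on the same side of 1. For Fcgr1 and Fcgr4 the shortest such transcript is also the longest, so those intervals repeat the main ones and check nothing. Of the 11141 kept genes, 451 (4.05%) reached 0.5 upward with a pseudocount of 0.1, against 281 (2.52%). Downward, 263 (2.36%) did so, against 176 (1.58%). The RPKM 5 filter keeps 8421 genes, of which 167 (1.98%) reached 0.5 upward and 90 (1.07%) downward. At a log2 ratio of 1 there were 91 upward and 75 downward with a pseudocount of 0.1, and 67 and 57 with 0.5, against 43 and 36. At the RPKM 5 filter 33 reached it upward and 19 downward. Depth limits Fcgr1 most.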
